A study of Homo sapiens with 3 samples.

Results

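The human mitochondrial genome encodes 13 proteins, and 6 of them belong to respiratory complexes III, IV and V: MT-CO1, MT-CO2 and MT-CO3 of cytochrome c oxidase, MT-ATP8 and MT-ATP6 of ATP synthase, and MT-CYB, the cytochrome b of complex III. They are described here in hCMEC/D3, an immortalized endothelial line from the small vessels of the human brain. The 6 transcripts were chosen by Ensembl identifier, with no threshold on a measured value, from 177456 transcripts quantified in each of 2 RNA-seq libraries, RNA replicates 1 and 2. They were proposed with their high TPM and their differences between these libraries already known, so both are given as a description without a test. A single ATAC-seq library of the same line, ATAC replicate 2, was the third sample. The cells were cultured to confluence on collagen-coated plates, the labels name no treatment, and the samples hold no other group. Nothing in the labels says that the RNA replicates came from separate cultures, so the spread between them may be technical. The RNA tables name the cells by a different abbreviation, and the identity of the line rests on the labels.

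Mitochondrial genes have no introns and are transcribed as long precursors that are cut into single messages, mostly at the transfer RNAs that lie between them. Complexes III and IV pass electrons from ubiquinol to oxygen while moving protons, and ATP synthase uses the proton gradient to make ATP. Each complex combines subunits encoded in the mitochondrion with others encoded in the nucleus. Brain capillary endothelium has been described as rich in mitochondria.

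The identity of the rows was checked against the RefSeq gene table of assembly GRCh38.p14. All 6 lengths equalled the span of the gene there. On the mitochondrial chromosome, MT-CO1 (ENST00000361624.2) runs from 5904 to 7445, MT-CO2 (ENST00000361739.1) from 7586 to 8269 and MT-CO3 (ENST00000362079.2) from 9207 to 9990. MT-ATP8 (ENST00000361851.1) runs from 8366 to 8572, MT-ATP6 (ENST00000361899.2) from 8527 to 9207 and MT-CYB (ENST00000361789.2) from 14747 to 15887. MT-ATP8 and MT-ATP6 overlap by 46 bases and MT-ATP6 and MT-CO3 by 1 base. The first of these pairs is read from 1 message carrying both frames. MT-CYB is set apart from the other 5, with 4756 bases between it and MT-CO3.

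Together the 6 transcripts took 3.29% of TPM in replicate 1 and 9.63% in replicate 2. TPM is the level per unit of effective length (the length left after an allowance for fragment size), scaled to the same total in each library. By estimated reads the shares were closer, 1.96% of 27359570 reads (95% Wilson interval 1.95% to 1.96%) and 2.71% of 22313574 reads (2.70% to 2.71%). The intervals do not overlap, but they cover counting error only. Complex IV supplied most of these reads, with 1.62% of the library in replicate 1 and 2.02% in replicate 2. Complex V supplied 0.221% and 0.463%, and MT-CYB alone 0.115% and 0.229%. Read shares take no account of transcript length. By TPM complex IV took 2.28% and 3.33%, complex V 0.896% and 5.99%, and MT-CYB 0.120% and 0.314%. The order of complexes IV and V in replicate 2 thus depended on the scale. In bulk libraries, a higher level in each cell and more cells with a high level cannot be told apart.

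MT-CO1 encodes the catalytic core of cytochrome c oxidase, which holds the haem and copper site where oxygen is reduced. Its level was 5438 TPM in replicate 1 and 10959 TPM in replicate 2, a mean of 8198 ± 3904 (SD, n = 2). It had the most estimated reads of the 6 in both libraries, 207249.5 and 257647. MT-CO2 carries the copper centre that accepts electrons from cytochrome c. Its level was 12412 TPM in replicate 1 and 15669 TPM in replicate 2, 14041 ± 2303 (SD, n = 2). It ranked 2 among all transcripts in each library, the only 1 of the 6 to hold its rank. MT-CO3, the third core subunit, stood at 4911 and 6645 TPM, 5778 ± 1227 (SD, n = 2). Its estimated reads were 77357 and 65601, lower in replicate 2, the library with fewer reads.

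MT-ATP6 encodes the subunit that forms the proton path of ATP synthase beside the rotating ring. It was at 4549 TPM in replicate 1 and 10499 TPM in replicate 2, 7524 ± 4207 (SD, n = 2). MT-ATP8 encodes a short membrane subunit of the same complex. Its level was 4408 TPM in replicate 1 and 49401 TPM in replicate 2, 26905 ± 31815 (SD, n = 2), so that its SD exceeded its mean. In replicate 2 it was the highest of all 177456 transcripts, and in replicate 1 it ranked 22. MT-CYB, which encodes the subunit of complex III that holds the ubiquinol sites, was the lowest of the 6 in TPM in both libraries, with 1201 and 3137 TPM, 2169 ± 1369 (SD, n = 2). It ranked 132 in replicate 1 and 29 in replicate 2.

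**Figure D1:**
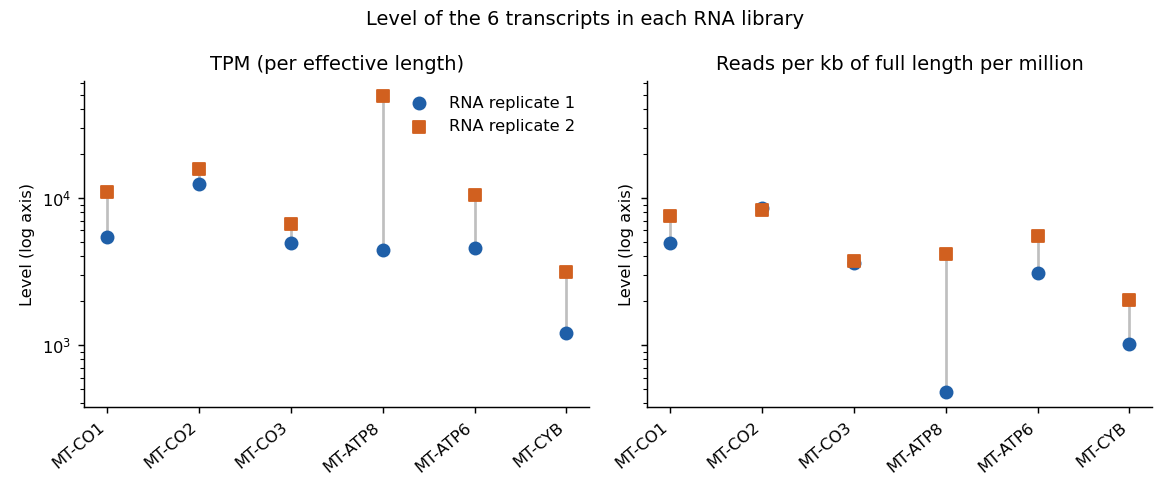
Level of each transcript in RNA replicate 1 (circles) and RNA replicate 2 (squares) on a log axis, in TPM on the left and in reads per kb of full length, scaled to the library total, on the right. MT-ATP8 runs from 4408 to 49401 TPM, and MT-CYB is lowest in TPM in both libraries.

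Of the 6 transcripts, 5 were among the 25 highest of replicate 1 and 5 among the 10 highest of replicate 2. By mean TPM the order was MT-ATP8, MT-CO2, MT-CO1, MT-ATP6, MT-CO3 and MT-CYB. Of the 5 steps in this order, 3 are within the spread of the libraries, as the ranges of MT-ATP8 and MT-CO2, of MT-CO1 and MT-ATP6, and of MT-ATP6 and MT-CO3 overlap. MT-CO2 lay above MT-CO1 and MT-CO3 above MT-CYB with no overlap. Relative to MT-CO1, MT-CO2 stood at 2.28 in replicate 1 and 1.43 in replicate 2 in TPM. MT-CO3 stood at 0.903 and 0.606, MT-ATP6 at 0.837 and 0.958 and MT-CYB at 0.221 and 0.286. The levels of these messages, which come from the same strand, were thus unequal in both libraries.

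Position along the genome was compared through reads per kb of full length, scaled to the library total, which uses no effective length. On this scale MT-CO2 was highest in both libraries, at 8492 and 8288. MT-CO1, upstream of it, had 4912 and 7488, and MT-ATP6, downstream of it, 3105 and 5541. MT-CO3 had 3606 and 3749.9, and MT-CYB had 1011 and 2008. MT-ATP8 was the lowest of the 6 in replicate 1, at 476, and the fourth in replicate 2, at 4157. In both libraries it lay below the flanking genes, MT-CO2 and MT-ATP6, the latter on the same message. This scale makes no allowance for fragment size, which lowers short transcripts such as MT-ATP8 most. In TPM MT-ATP8 lay below both flanking genes in replicate 1 and above both in replicate 2.

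**Figure D2:**
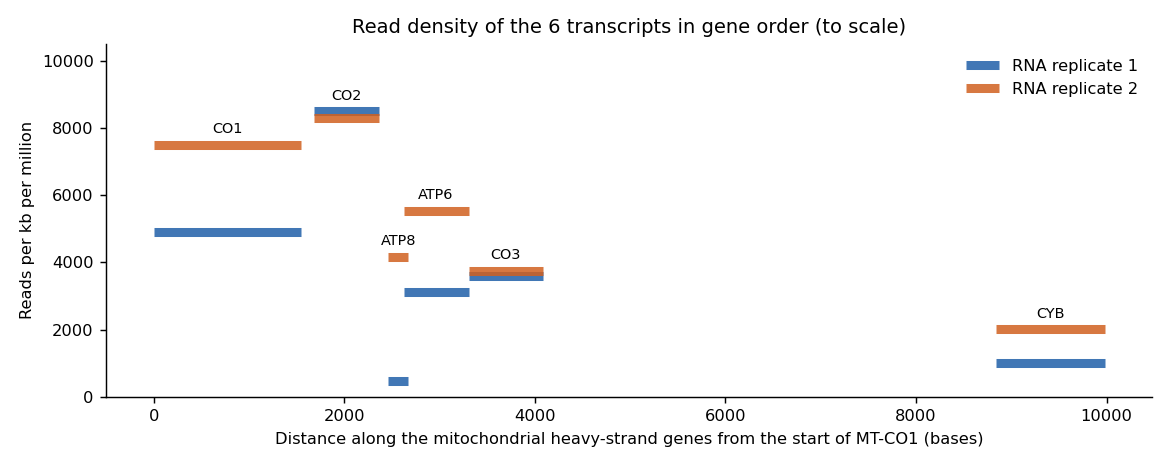
Reads per kb of full length, scaled to the library total, of each transcript, drawn to scale by distance in bases from the start of MT-CO1; blue segments are RNA replicate 1 and orange segments RNA replicate 2. The 2 segments of MT-CO2 (8492 and 8288) nearly coincide, whereas those of MT-ATP8 (476 and 4157) are far apart.

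All 6 transcripts had a higher TPM in replicate 2. On the log2(TPM + 1) scale the difference, replicate 2 minus replicate 1, was 0.34 for MT-CO2, 0.44 for MT-CO3, 1.01 for MT-CO1, 1.21 for MT-ATP6, 1.38 for MT-CYB and 3.49 for MT-ATP8. The cytochrome oxidase transcripts thus differed least. Over 2-fold higher were 4 of 6, where MT-CO1 passed the threshold narrowly, and 39.2% of the 39169 transcripts at 1 TPM or more on average were so too. In the other direction 0 of 6 and 14.3% of those transcripts were over 2-fold lower. The median of the 6 was 1.11, beside 0.60 over all these transcripts. With 1 library on each side, none of these differences has a replicate check.

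The direction of MT-CO2 and MT-CO3 depended on the scale. On the RPM scale, where a library total divides the reads and length plays no part, MT-CO2 was at 5808 and 5669 and its log2 difference was -0.04, with a counting interval of -0.05 to -0.02. MT-CO3, at 2827 and 2939.9 RPM, differed by 0.06. After centring on the median of all transcripts both were lower in replicate 2, by -0.27 and -0.16, and the calls over all transcripts were 10326 higher and 9370 lower, compared with 15337 and 5609 without centring. MT-CO1, at 7575 and 11547 RPM, differed by 0.61, MT-ATP6, at 2114 and 3773, by 0.84, and MT-CYB, at 1154 and 2291, by 0.99. MT-ATP8 was the only 1 of the 6 over 2-fold higher in RPM and after centring. Of all transcripts, 28.1% were over 2-fold higher in RPM and 26.4% after centring.

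Highly expressed transcripts as a class were lower in replicate 2. Among 120 transcripts that averaged 1000 TPM or more and are not among the 13 mitochondrial ones, the median log2 difference in TPM was -0.73 (quartiles -0.97 and -0.45). Of these 120, 2 were over 2-fold higher in replicate 2. With the mitochondrial transcripts included, 11 of 133, or 8.27%, were over 2-fold higher, and 4 of those 11 belong to the 6. This threshold of 1000 TPM was chosen after seeing the data. Leaving the 13 mitochondrial transcripts out of the TPM total raised the 6 differences, to between 0.48 and 3.63. The 2 other transcripts nearest to the median of the 6, by distance in log2(TPM + 1) of both libraries, were ENST00000646664.1, with 3630 and 5743 TPM, and ENST00000451311.7, with 5911 and 4112 TPM. Their distances from it were 0.978 and 1.42 log2 units, and the files do not link them to genes.

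**Figure D3:**
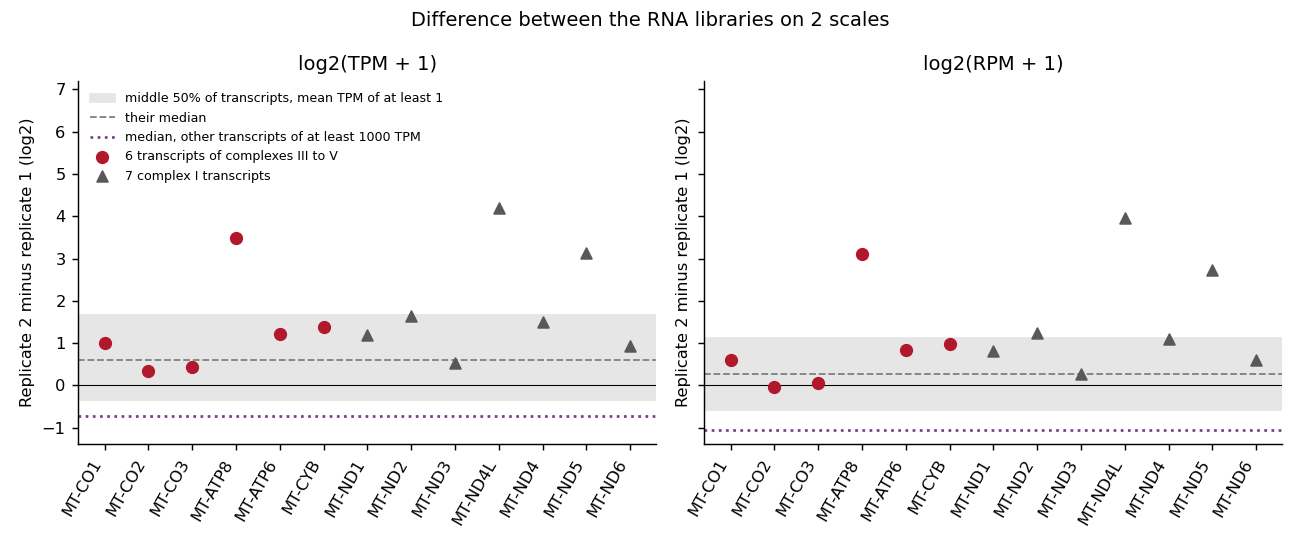
Log2 difference, replicate 2 minus replicate 1, of the 6 transcripts (circles) and of the 7 complex I transcripts (triangles) in TPM on the left and RPM on the right. The grey band is the middle 50% of the 39169 transcripts at 1 TPM or more on average, the dashed line their median, and the dotted line the median of 120 other transcripts of at least 1000 TPM; MT-CO2 moves from 0.34 to -0.04 between the scales.

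MT-ATP8 is the shortest of the 6, with 207 bases. For MT-CO1, length minus effective length, the allowance for fragment size, was 250.1 bases in replicate 1 and 235 in replicate 2. MT-ATP8 is shorter than either value, and its effective length was 20.8 bases in replicate 1 and 21.6 in replicate 2, or 10.02% and 10.4% of its length. For MT-CO1 these shares were 83.8% and 84.7%. A given number of reads therefore weighs far more in the TPM of MT-ATP8 than in that of MT-CO1. Its reads also differed: 2699 in replicate 1 and 19202 in replicate 2, or 98.6 and 861 RPM, so that replicate 2 was 8.72-fold higher in RPM and 11.2-fold higher in TPM.

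The ratio of MT-ATP8 to MT-ATP6, which share a message, was 0.969 in replicate 1 and 4.71 in replicate 2 in TPM. Per kb of full length it was 0.153 and 0.7503, so that MT-ATP8 lay below MT-ATP6 in both libraries. That scale makes no allowance for fragment size, which sets so short a transcript lower than TPM does. MT-ATP8 received 4.46% of the reads of the pair in replicate 1 and 18.6% in replicate 2. Counted as 1 message over their joint span of 842 bases, the pair had 2213 and 4634 RPM, which is 2.09-fold more in replicate 2. Without MT-ATP8 the other 5 transcripts took 2.85% of TPM in replicate 1 and 4.69% in replicate 2, which is 1.65-fold more in place of 2.93-fold.

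**Figure D4:**
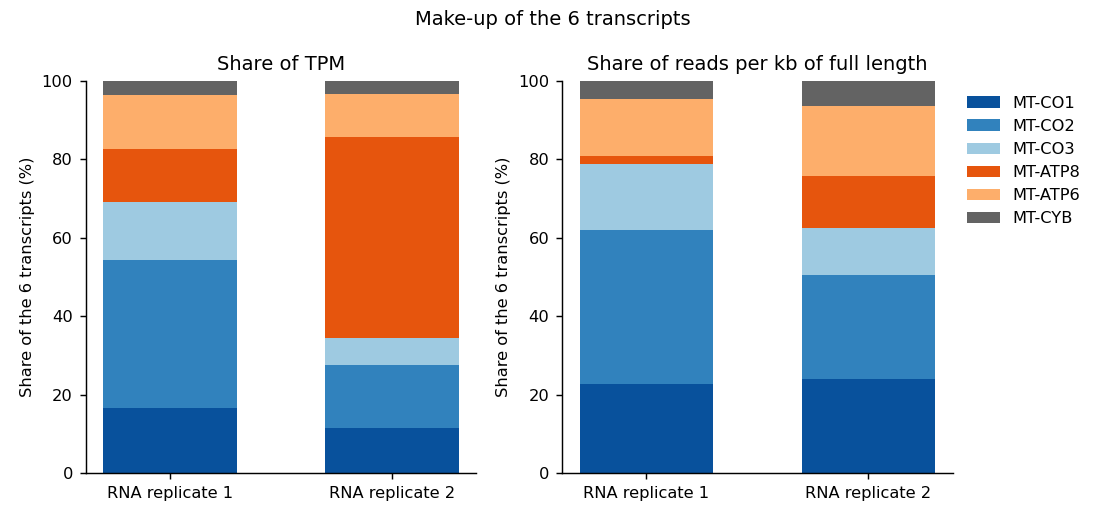
Share of each transcript in the sum of the 6, as stacked bars from 0 to 100% for each RNA library, by TPM on the left and by reads per kb of full length on the right. MT-ATP8 takes 13.4% and 51.3% of the TPM, and 2.21% and 13.3% of the reads per kb.

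Transcripts of 150 to 300 bases were then examined, a range chosen after seeing the data, again at 1 TPM or more on average. Among 386 such transcripts outside the mitochondrion the median log2 difference in TPM was 1.61 (quartiles -0.28 and 2.34), and 32 of them were at or above the 3.49 of MT-ATP8. These transcripts were not matched to MT-ATP8 in level. A transcript with almost no reads in replicate 1 can pass the filter through replicate 2 alone. The 32 therefore do not show whether the difference of MT-ATP8 is usual for a short transcript of its level. The part of transcript length in its difference was not tested.

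The 7 mitochondrial transcripts of complex I were set beside the 6. They took 1.33% of TPM in replicate 1 and 4.29% in replicate 2, less than the 6 in both libraries. The median of the 6 was 4730.0 TPM and 10729 TPM, and that of complex I was 1526 and 5258 TPM, a ratio of 3.10 in replicate 1 and 2.04 in replicate 2. All 7 had a higher TPM in replicate 2, and 5 were over 2-fold higher, beside 39.2% of transcripts at 1 TPM or more on average. In RPM all 7 were higher and 4 over 2-fold higher, beside 28.1%. After centring 6 were higher and 3 over 2-fold higher, beside 26.4%. Of the transcripts of complexes III to V, 5 were higher in RPM and 4 after centring, with 1 over 2-fold higher on either scale. By mean TPM the highest was MT-ND4L, with 845 and 15469 TPM, and the lowest MT-ND5, with 263 and 2324 TPM. MT-ND4L was the highest in replicate 2 only, and in replicate 1 only MT-ND5 was lower. MT-ND4L, of 297 bases, overlaps MT-ND4 by 7 bases as MT-ATP8 overlaps MT-ATP6. Its effective length was 62.0 bases in replicate 1 and 71.1 in replicate 2. Its ratio to MT-ND4 was 0.441 in replicate 1 and 2.87 in replicate 2 in TPM. Per kb of full length the ratio was 0.112 and 0.829, so that MT-ND4L lay below MT-ND4 in both libraries. Both short frames that share a message with a longer neighbour were therefore relatively higher in replicate 2.

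Copies of mitochondrial DNA are inserted in nuclear chromosomes, and they matter for these genes because reads of near-identical sequence cannot be assigned with certainty. RefSeq names 219 such pseudogenes of the 6 genes, from 4 of MT-ATP8 to 58 of MT-CO1. An ATAC peak overlapped 13 of the 219 (5.94%, 95% Wilson interval 3.50% to 9.89%), beside 5.77% of all 15580 pseudogenes of this class, so the share was near the background. With 1 kb added on either side it was 15 of 219 (6.85%, 4.19% to 10.99%), below the 11.96% of all these pseudogenes, so the reading depended on the span. The 13 copies were overlapped by 10 distinct peaks. Both intervals treat copies as independent, although neighbouring copies can share a peak, so they may be too narrow. Copies of the complex I genes had a peak in 11 of 255 (4.31%). The peak list holds 0 peaks on the mitochondrial sequence itself, and whether such reads were removed before peak calling is not given in the sources used here.

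The 3 peaks of highest pileup among all 106415 overlapped a block of these copies on chromosome 1, and together the peaks ran from 629101 to 634890. The first, from 629101 to 631474, had a pileup of 248 tags. It reached into MTCO1P12 with 401 of its 2374 bases, and the rest lay outside the copies of the 6 genes. The second, from 631830 to 632966, overlapped MTCO1P12 and MTCO2P12 with 225 tags. The third, from 633382 to 634890, covered MTATP8P1 and MTATP6P1 in full and overlapped MTCO2P12 and MTCO3P12, with 205 tags. The next highest pileup in the list was 162 tags and the median 21.6. Copies of 5 of the 6 genes thus stood in 1 block, in the order of the mitochondrial genome. MTCO1P12, MTATP8P1 and MTATP6P1 had 1543, 207 and 681 bases, compared with 1542, 207 and 681 in the mitochondrial genes. MTCO2P12 had 682, compared with 684, and MTCO3P12 was shorter, with 547 compared with 784.

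The authors' fold enrichment of these 3 peaks was low, 2.22, 1.96 and 1.87, beside a median of 4.49, and 0.928% of all peaks had a lower fold than the first. Pileup divided by fold, taken as an approximation of the local background, was 110.0 to 115 tags there, compared with a median of 4.11 tags. The other 7 peaks on copies had 24.3 to 55.3 tags and folds of 3.48 to 12.2. The highest of these folds was at MTCYBP35, on chromosome 5 from 94569290 to 94569631, where the peak covered 8.09% of the copy. Whether tags in the chromosome 1 block came from the nucleus or from the mitochondrion was not tested.

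**Figure D5:**
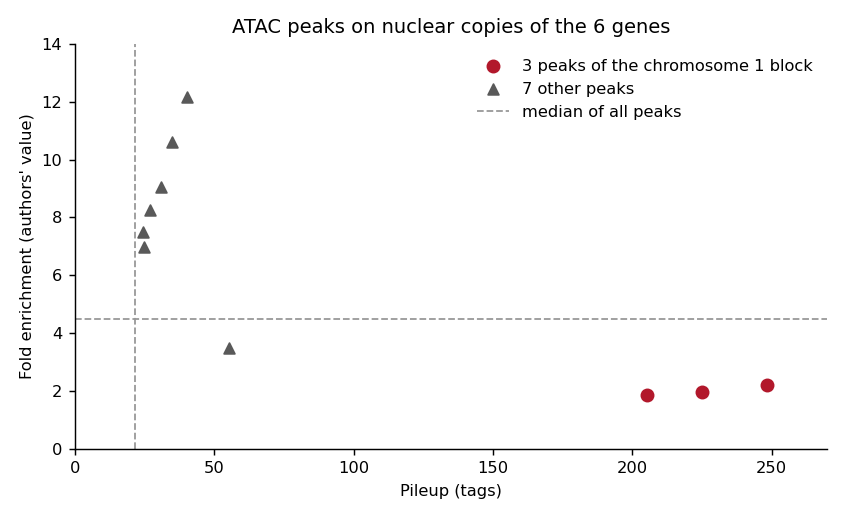
Pileup in tags against the authors' fold enrichment for the 10 ATAC peaks that overlap nuclear copies of the 6 genes; dashed lines are the medians of all peaks. The 3 peaks of the chromosome 1 block lie at 205 to 248 tags with folds of 1.87 to 2.22, and the other 7 at 24.3 to 55.3 tags.

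The nuclear partners of the 6 genes could be described only by accessibility, because the RNA tables do not link transcripts to genes. Of 44 nuclear subunit genes of complexes III, IV and V, 38 (86.4%, 95% Wilson interval 73.3% to 93.6%) had a peak within 1 kb of a gene end, beside 72.8% of protein-coding genes. All 9 of complex III had one, from 40.8 tags at UQCRFS1, the Rieske iron-sulfur protein, to 69.3 tags at UQCRQ. In complex V 17 of 18 had one, from 22.4 tags at ATP5MG to 109 tags at ATP5F1B, which encodes the catalytic beta subunit, and ATP5MC2 was without. In complex IV 12 of 17 had one, from 21.4 tags at COX6C to 78.4 tags at COX6B1. The 5 without were COX4I2, COX6A2, COX7B2 and COX8C, forms known from particular tissues, and COX7A2. Other tissue forms of complex IV did have an end peak, with 29.2 tags at COX7A1 and 22.7 tags at COX6B2. For COX7A2 and ATP5MC2 the ends of the longest annotated span had no peak, but a peak of 42.6 and 61.7 tags lay on a RefSeq promoter window inside the gene. For the other 4, accessibility at the gene ends was not detectable at this depth.

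Promoters of these nuclear genes were searched for TGCGCA, which is part of the element that nuclear respiratory factor 1 (NRF1) is known to bind, in RefSeq windows of 300 bases. The motif reads the same on both strands. This search was added after seeing the data. The table of windows held 35 of the 44 genes, and a gene counted where any of its windows had a match. The motif was found in 8 of the 35 genes (22.9%), beside 12.7% of 15843 protein-coding genes. Counted by window it was in 8 of 40 (20%), beside 8.24% of all 35116 windows. By complex it was in 2 of 7, 4 of 14 and 2 of 14 genes of complexes III, IV and V. A peak overlapped a window of 31 of the 35 (88.6%), beside 70.2% of protein-coding genes. Counted by window a peak overlapped 34 of 40 (85%), beside 51.9% of all windows. A match is a description of sequence and shows no binding.

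For each complex, a stretch of 90 bases upstream of the start is shown from the gene with the highest pileup among those with a match before the start, 5′ to 3′, with the match in capitals, so that the accessible partner promoters can be read beside their values (GRCh38.p14).
UQCRC1 (chr3:48609756-48609845, minus strand): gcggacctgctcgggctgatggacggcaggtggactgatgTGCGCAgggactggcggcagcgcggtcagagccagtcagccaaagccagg
COX6A1 (chr12:120437863-120437952, plus strand): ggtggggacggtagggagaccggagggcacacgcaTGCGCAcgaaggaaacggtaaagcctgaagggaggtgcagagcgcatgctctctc
ATP5MC2 (chr12:53676340-53676429, minus strand): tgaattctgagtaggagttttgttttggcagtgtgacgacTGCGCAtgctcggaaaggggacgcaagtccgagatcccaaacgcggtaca
UQCRC1 encodes a core subunit of complex III, and its promoter lay under a peak of 48.1 tags and a fold of 5.90. COX6A1 encodes a subunit of complex IV, under a peak of 56.7 tags and a fold of 6.59. ATP5MC2 encodes the ring subunit of ATP synthase, under a peak of 61.7 tags and a fold of 6.87.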

How the data were processed

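The authors deposited, per the file headers, TPM and estimated counts of reads for 177456 Ensembl transcripts per RNA library. The submitters' processing notes list Salmon 1.5.1 and the builds GRCh38 and mm10 without roles; annotation release, strand setting and RNA enrichment are not given in the sources used here. Totals were 27359570 and 22313574 estimated reads, so 3 reads equal 0.110 and 0.134 RPM (estimated reads scaled to the assigned total).

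The ATAC file gives pileup signal, fold ratio, −log10 p and −log10 q per peak, called by the authors with MACS2 on 1 library without a control, per the file headers, and is used only within this list.

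Library differences use log2(value + 1) and a minimum mean of 1 TPM. The calculation was tested on simulated data with planted changes and counting noise only, which is no check on the differences reported here. No p-value was computed, as there is 1 RNA group. The 7 complex I identifiers were named from general knowledge, and all 13 lengths equal the RefSeq spans (GRCh38.p14). A gene end is 1 kb either side of either RefSeq end. Of all peaks 14.9% lay at protein-coding ends, and 5.44% after an offset of 50 kb. NDUFA4 and FASTKD4 were matched as COXFA4 and TBRG4. The 6 transcripts and all lists were chosen with earlier results of these data known. Genes named are the 6 transcripts, the complex I extremes, the 2 nearest other transcripts, the pileup extremes of each list and listed subunit genes without a peak; COX7A1, COX6B2 and the promoters shown were chosen after their values were seen. Alternatives were RPM, full length, pseudocount 0.1, centring, filters, windows and single libraries. Python 3.11.15 with pandas 2.3.3 was used.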

Additional observations from a re-analysis of the deposited data

How the results depend on the processing

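Of 143 alternative values, 92 stayed within the SD of the libraries, the counting interval or 1.5-fold of a count. Another 47 moved beyond it and 4 reversed. With n = 2 the SD is wide, and each library lies within it of the mean whatever the values. The single-library settings could therefore hardly move, and their staying is no check. The level of MT-ATP8, 26905 in TPM and 480 in RPM, also counted as staying, as its SD was 31815. The cause of the changes was not tested. The reversals were MT-CO2 in RPM (-0.035), per kb of full length (-0.035) and after centring (-0.27), and MT-CO3 after centring (-0.16). The count of the 6 over 2-fold higher in replicate 2 fell from 4 to 1 in RPM, per kb of full length and after centring. The share over all transcripts was 39.2% in TPM, and 28.1%, 29.2% and 26.4% on those 3 scales. The median level was 2914 in RPM. MT-ATP8 took 1.84% of the reads of the 6, in place of a mean of 32.3% of TPM, and its ratio to MT-ATP6 was 0.137 in reads, in place of 2.84. At 5 TPM, 4938 transcripts (30.8%) were over 2-fold higher and 2761 (17.2%) over 2-fold lower. These were 127 (11%) and 204 (17.7%) at 100 TPM, and 11 (8.27%) and 29 (21.8%) at 1000 TPM. Fewer are tested at each step, but the share higher fell from 39.2% at 1 TPM and the share lower rose from 14.3%. After centring 9370 (23.9%) were lower. Copies with a peak fell from 13 to 7 of 219 (3.20%) with a fold of at least 4, which removes the 5 copies of the chromosome 1 block and MTCYBP18. The share over all pseudogenes fell too, from 5.77% to 4.15%. With single libraries (replicate 2 left out, then replicate 1), the median level ran from 4730.0 to 10729 TPM, the summed share from 3.29% to 9.63%, the MT-ATP8 share from 13.4% to 51.3%, the MT-ATP8 to MT-ATP6 ratio from 0.969 to 4.71, and the ratio to complex I from 3.10 to 2.04. No paired analysis was possible because number 2 is the only one that both assays carry. The thresholds of 100 and 1000 TPM, the sum without MT-ATP8 and the joint span were chosen after seeing the data.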

Other observations

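Genes that act on mitochondrial RNA or assemble these complexes had accessible ends throughout the lists examined. Of 18 genes for transcription and handling of mitochondrial RNA, 18 had an end peak, from 18.7 tags at MTPAP, the mitochondrial poly(A) polymerase, to 81.4 tags at TFB2M, a transcription factor of the mitochondrial promoters. Of 18 assembly factors, 18 had one, from 36.8 tags at COX11 to 108 tags at COX14. The share over all protein-coding genes was 72.8%.

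End peaks did not separate the labelled cell type from others. They were found at 8 of 8 endothelial markers, beside 72.8% of protein-coding genes, from 10.98 tags at ERG to 62.6 tags at CDH5. The median of the 8 was 34.99 tags, below the 45.7 tags over all coding genes that had such a peak. End peaks were also found at 4 of 4 pericyte or smooth muscle markers, 3 of 3 neuronal markers, 2 of 2 leukocyte markers and 1 of 3 astrocyte markers.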
